A study of Ascaris suum with 12 samples.

Results

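The C2H2 zinc finger genes of the roundworm Ascaris suum were followed along the male and the female germline. A gene was a member when at least 1 of its transcripts had an annotation that names a C2H2 zinc finger. In the deposited table the only wording met was "zinc c2h2 type family protein". The rule found 67 of 18025 genes. Of these, 29 were eliminated genes, which lie in DNA that is discarded from somatic cells and kept in the germline, and 38 were retained genes, which every cell keeps. The annotation gives these genes no individual names, so they are called by their identifiers and no role of a single gene is given.

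Ascaris suum lives in the intestine of pigs and drops part of its DNA from somatic cells in the early embryo, which is known as programmed DNA elimination. From adults of a North American wildtype strain the germline was dissected, and pieces of the reproductive tract were frozen and used for total RNA sequencing after ribosomal RNA depletion. The 5 male regions were, in order, the mitotic region, spermatogenesis, the post-meiotic region, the seminal vesicle and spermatids, and the 5 female regions were the mitotic region, pachytene (early and late), diplotene and the oocyte. Each region was 1 library, so no test between regions was possible, no p-value is given, and each difference holds for the libraries compared. The labels name no treatment or genetic change, and they do not give the number of worms behind a library. Values are RPKM, reads scaled to transcript length and library size, and a gene is represented by the transcript that the table marks as best expressed.

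A C2H2 zinc finger is a short protein fold in which cysteines and histidines hold a zinc ion. Fingers are often repeated along a protein and commonly bind DNA, so many of these proteins are transcription factors, and others bind RNA or protein. In animals the family is among the largest groups of DNA-binding proteins and its number of genes changes quickly between species. In nematodes, many transcripts also receive a spliced leader, a short RNA joined to the 5' end by trans-splicing.

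Column totals over all transcripts were 1090760 to 1610771 RPKM, and 8.10% to 25.5% of transcripts were listed at 0, the most in the seminal vesicle. The 100 highest transcripts held 21.7% of the total in the male mitotic library and 22.4% in the female one, and 31.8% to 66.0% in the other 8 regions. The 17 genes named for major sperm proteins summed to 14844 RPKM in the male mitotic region, 37933 in spermatogenesis and 27318 post-meiotically, against at most 93.8 in a female region, so the library labelled male mitotic region also held sperm transcripts. The 213 collagen and cuticlin genes summed to 20836 RPKM in the seminal vesicle and 17648 in spermatids, against 451 to 1707 elsewhere. Sums of the 116 muscle genes ranged from 346 to 2339 RPKM, those of the 101 neuronal genes from 119 to 543 and those of the 7 intestine and yolk genes from 0.1 to 20.9. What other cells in these pieces contributed to the C2H2 values was not tested, and fewer cells of a type cannot be told apart from less RNA per cell.

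Eliminated genes were 43.3% of the C2H2 family and 5.14% of all genes. The family made up 3.13% of the 926 eliminated genes and 0.222% of the 17099 retained ones. Scaffolds whose names begin with AgE held 15 of the 29 eliminated members, and AgB scaffolds, which hold both kinds of gene, held the other 14. The 38 retained members were on AgB (11) and AgR (27) scaffolds. The members were spread over 42 scaffolds, and AgB08X alone had both kinds, with AgB08X_g002 and AgB08X_g003 eliminated and AgB08X_g015 retained. On scaffolds with an X in the name were 9 eliminated members (31.0%), against 6.16% of all eliminated genes. For retained members the share was 2 of 38 (5.26%), against 18.9% of all retained genes.

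Many members lay side by side and close to scaffold ends. There were 14 pairs of directly neighbouring members, 7 eliminated and 7 retained, and no pair mixed the kinds. These pairs held 28 of the 67 genes, and in 10 of them both genes were on the same strand. The 5 first or last genes of a scaffold included 23 of the 29 eliminated members (79.3%), against 62.6% of all eliminated genes. Retained members were in such places for 11 of 38 (28.9%), against 8.13% of all retained genes. Many scaffolds are short, so the share was also taken on scaffolds whose genes span 500 kb or more. There, 8 of 8 eliminated members lay within 100 kb of the first or last gene, against 53.1% of eliminated genes, and 5 of 32 retained members (15.6%), against 7.13% of retained genes. A scaffold end is a feature of the assembly and need not be the end of a chromosome.

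The transcripts were short. The marked transcript had a median length of 1182 nt in eliminated and 1143 nt in retained members, against 1747 nt in all eliminated and 1905 nt in all retained genes. The table gave 1 transcript for 34 of the 67 members and up to 18 for another. A spliced leader was recorded for 14 members (20.9%), against 43.01% of all genes. The share was also taken within a range of levels. Among genes with a highest value of 1 to under 10 RPKM, leaders were recorded for 14.3% of retained members against 39.9% of all retained genes, and for 18.2% of eliminated members against 17.3% of all eliminated genes. A 5' end without leader, from a method that captures capped ends, was recorded for 1 eliminated (3.45%) and 4 retained members (10.5%), against 22.03% and 14.2% of all genes of these kinds. Among genes with a highest value of 1 to under 10 RPKM these gaps were smaller or absent. There such an end was recorded for 0 of 22 eliminated members, against 6.02% of eliminated genes, and for 2 of 21 retained members (9.52%), against 8.8% of retained genes. The spans of 14 members, 7 of them eliminated, overlapped another gene. How reads shared by overlapping or near-identical genes were counted, and whether strand was used, is not known from the sources used here, so the values of neighbouring members may share reads.

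C2H2 genes were low in these germline regions. A level of 10 RPKM or more in at least 1 region was reached by 2 of 29 eliminated members (6.90%), against 573 of 926 eliminated genes (61.9%), and by 9 of 38 retained members (23.7%), against 45.3% of retained genes. At 1 RPKM or more the counts were 24 of 29 and 30 of 38. The median of the highest value was 2.30 RPKM in eliminated and 2.40 in retained members, against 17.6 in all eliminated and 8 in all retained genes. Both kinds of member were thus similarly low at the median, while eliminated genes as a whole stood above retained ones. The map of levels shows all members in every region.

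**Figure D1:**
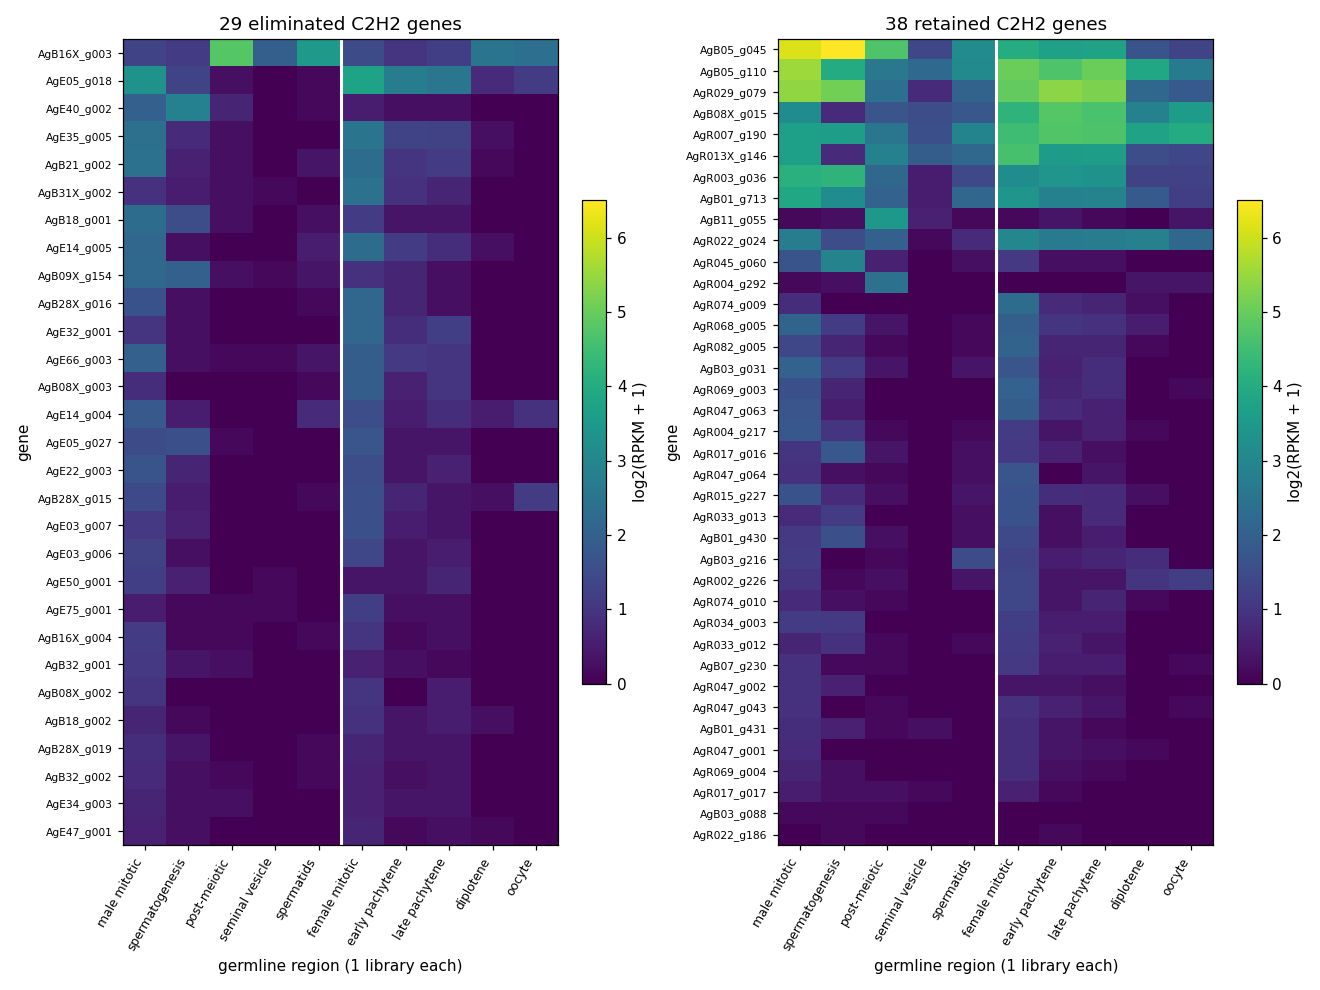
Each row is a C2H2 gene, ordered by its highest value, and each column a germline region with 1 library; colour shows log2(RPKM + 1), with eliminated genes at left, retained genes at right and a white line between male and female regions. Most genes have their brightest cells in the 2 mitotic columns, and 2 eliminated and 9 retained genes reach 10 RPKM.

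Low as they were, most members had their highest levels in the mitotic regions, at the start of both germlines. In eliminated members the median level was 1.40 RPKM in the male mitotic region with 0.30, 0.10, 0 and 0.10 in the following male regions. In the female germline it was 1.80 in the mitotic region and 0.30, 0.40, 0 and 0 in the later ones. Retained members had medians of 1.15, 0.65, 0.15, 0 and 0.10 RPKM along the male germline and 1.65, 0.45, 0.50, 0.05 and 0 along the female one. At the median, both kinds of C2H2 gene were thus highest in the mitotic regions and near 0 at the end of each germline. In spermatogenesis the median of eliminated members (0.30 RPKM) was below that of retained members (0.65). All eliminated genes together had another course, with medians of 9.10 RPKM in the male mitotic region then 7.20 in spermatogenesis, but 1.20 in the female mitotic region.

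**Figure D2:**
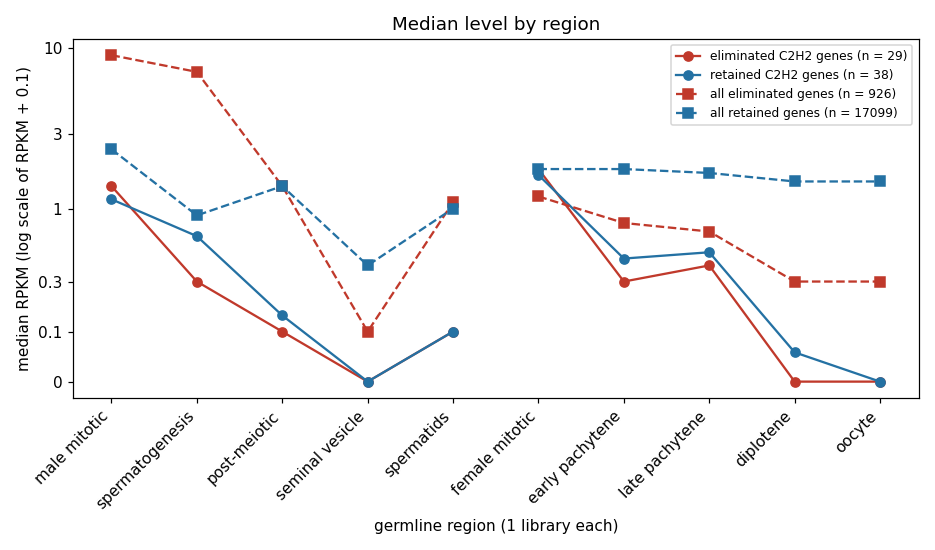
Median RPKM of each gene set (vertical axis, log scale of RPKM + 0.1) in each region (horizontal axis, male regions then female regions, 1 library each); lines join regions of 1 sex. The 2 C2H2 sets are highest in the mitotic regions and reach 0 in the seminal vesicle and the oocyte, while all eliminated genes stay at 7.20 RPKM in spermatogenesis.

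Among genes that reached 1 RPKM, the region of the highest value was a mitotic one for 22 of 24 eliminated members (91.7%), 12 in the female and 10 in the male. The same was true of 43.2% of all eliminated genes, of which 47.9% were highest in spermatogenesis. Of the eliminated members, 1 was highest in spermatogenesis (AgE40_g002) and 1 in the post-meiotic region (AgB16X_g003). Among retained members 20 of 30 (66.7%) were highest in a mitotic region, against 38.9% of all retained genes. The 11 members that reached 10 RPKM were spread more widely, with 3 highest in the male mitotic region and 2 each in spermatogenesis, the post-meiotic region, the female mitotic region and early pachytene. The mitotic excess was thus mainly in the low genes.

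**Figure D3:**
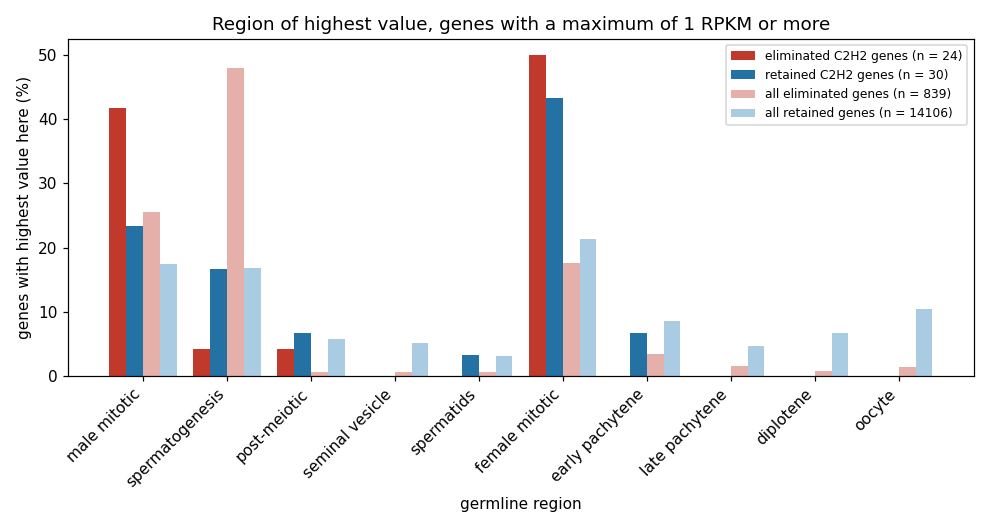
Bars give the percentage of genes (vertical axis) whose highest value is in each region (horizontal axis), among genes with a maximum of 1 RPKM or more, for the 4 gene sets in the legend. The eliminated C2H2 bars stand at 41.7% (male) and 50.0% (female) in the mitotic regions, while the bar of all eliminated genes is highest in spermatogenesis at 47.9%.

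A stricter description asked that both mitotic regions be above each of the other 8 regions. It held for 20 of 29 eliminated members (69.0%) and 20 of 38 retained members (52.6%), against 16.7% of all eliminated, 12.3% of all retained and 12.5% of all genes. Leaving out the seminal vesicle, which can only keep or raise such counts, did not alter the 2 counts of members. The mitotic libraries are also those with the smallest share of RPKM in a few very abundant transcripts, as given above. After rescaling all libraries by median ratios the pattern held for 11 eliminated members (37.9%) and 6 retained members (15.8%), against 1.90% of all genes, so both counts were smaller on that scale. AgE35_g005, chosen here as an example after its values were seen, had 4.3, 0.7, 0.2, 0 and 0 RPKM along the male germline and 4.7, 1.5, 1.4, 0.2 and 0 along the female one. AgB28X_g016, on an X scaffold and chosen likewise, had 2.1, 0.2, 0, 0 and 0.1 RPKM along the male germline and 3.4, 0.6, 0.2, 0 and 0 in the female regions. In both genes the mitotic libraries were the 2 highest, and the end of each germline was at or near 0.

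Leaving the mitotic region for pachytene in the female, the family was lower more often than other genes. Of the eliminated members 28 of 29 were lower in early pachytene and 0 were higher, and of the retained members 29 of 38 were lower and 6 higher. The median difference of log2(RPKM + 1) was -0.94 in eliminated and -0.57 in retained members, against 0.00 over all genes. A call needs a 4-fold difference, and with 1 added to each value and 10 RPKM in the higher library no member was called higher (0.272% of all genes) or lower (0.155%), since few members reach 10 RPKM. A wider rule, added after the values were seen, used RPKM + 0.1 and a higher value of 1 RPKM or more. Under it 21 of 67 members (31.3%) were lower in early pachytene, 11 eliminated and 10 retained, against 0.782% of all genes, and 0 were higher, against 1.21%.

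Those 21 genes were 14.9% of all 141 genes called lower at this step, and 11 of the 25 eliminated genes among them. The comparison was repeated within a narrow range of levels. Among genes at 1 to under 5 RPKM in the female mitotic region 21 of 38 members (55.3%) were lower, against 2.71% of all genes and 10.7% of eliminated genes in that band. By annotation, hypothetical proteins were the most numerous of the 141, with 64 genes, followed by 19 whose marked transcript has the C2H2 name and 17 named for a Pol polyprotein of an R2 retrotransposon. After rescaling, 3 members (4.48%) were lower, against 0.227% of all genes. The 1 RPKM minimum was applied to the rescaled values, which are smaller in the female mitotic library, so fewer members could be called lower. The direction held on that scale, with median differences of -0.53 in eliminated and -0.27 in retained members against 0.01 over all genes. Values of these genes in early pachytene were mostly under 1 RPKM, where 1 decimal limits the precision.

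**Figure D4:**
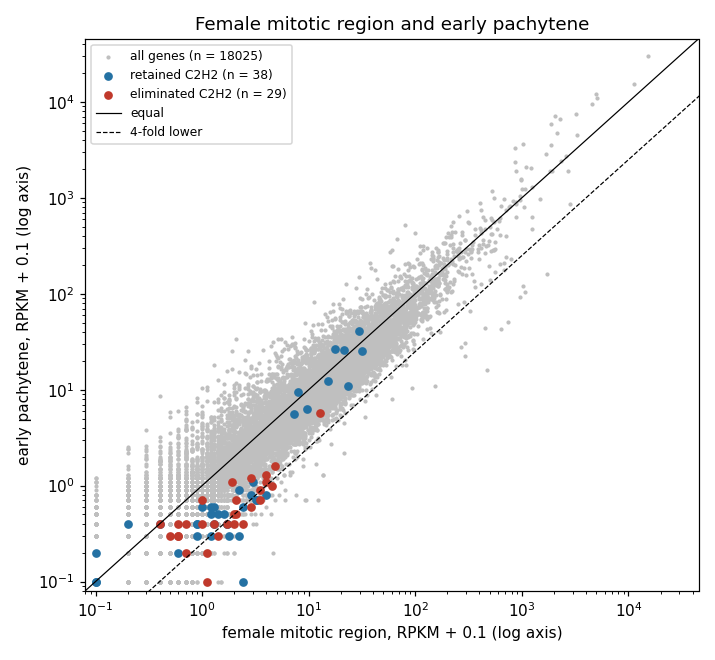
Each point is a gene, with its RPKM + 0.1 in the female mitotic region (horizontal, log axis) and in early pachytene (vertical, log axis); the solid line marks equal values and the dashed line a 4-fold lower value in early pachytene. Of the 38 C2H2 genes at 1 to under 5 RPKM in the female mitotic region, 21 lie on or under the dashed line. These are toward the lower edge of the grey cloud of all genes, and the rest lie above the dashed line.

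The 3 members with the steepest fall at this step had log2 differences of -1.51, -1.53 and -1.72, in the order given below. The median over the 67 members was -0.76. AgB31X_g002, eliminated, had 4.4 RPKM in the female mitotic region and 0.9, 0.6, 0 and 0 in the later female regions, while its male values were 0.9, 0.4, 0.2, 0.1 and 0. AgR074_g009, retained, had 3.9 RPKM in the female mitotic region and 0.7, 0.6, 0.2 and 0 after it, with 0.8 as its male mitotic value and 0 for the rest of the male germline. AgR047_g064, retained, was at 2.3 RPKM in the female mitotic region and listed at 0 in early pachytene. Its marked transcript is 331 nt and the depth of these libraries is not known, so few reads may lie behind these values. These 3 genes were chosen after their values were seen. Each was higher in the female than in the male mitotic region.

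Neighbouring members could differ or run together. AgE03_g006 and AgE03_g007, an eliminated pair, had 1.6 and 2.0 RPKM in the female mitotic region, 0.3 and 0.4 in early pachytene, and 1.4 and 1.1 in the male mitotic region. AgB16X_g003 and AgB16X_g004, an eliminated pair on an X scaffold, had 26.7 and 0.1 RPKM in the post-meiotic region. The first of them is an exception among eliminated members, as described later.

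In the male germline the difference between the family and other genes depended on scaling. From the male mitotic region to spermatogenesis 27 of 29 eliminated and 27 of 38 retained members were lower, with median log2 differences of -0.74 and -0.58, against -0.30 over all genes. After rescaling these medians were -0.01 and 0.32, and that of all genes was 0.15, so no direction is given for the family at this step. All eliminated genes had a median of 0.00 as deposited and 1.48 after rescaling, which placed the eliminated members lower than other eliminated genes on both scales. By the wider rule 15 members (22.4%) were lower, against 25.2% of all genes, and 0 higher (4.39%). Lower were 10 eliminated members (34.5%), against 17.8% of all eliminated genes, and 5 retained members (13.2%), against 25.6% of all retained genes. After rescaling 1 member was lower (2.06%) and 9 were higher (21.0%). Those 9 were 2 eliminated members (6.90%), against 45.1% of all eliminated genes, and 7 retained members (18.4%), against 19.7% of all retained genes. With RPKM + 1 and 10 RPKM, 0 members were higher, against 2.11%, and 1 was lower, against 9.79%. This was AgR013X_g146, with 11.8 RPKM in the male mitotic region and 0.7 in spermatogenesis (-2.91 on the log2 scale).

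The 2 mitotic regions gave the family much the same levels in both sexes. The median log2 difference, male minus female, was -0.09 in eliminated and -0.08 in retained members and turned to 0.09 and 0.01 after rescaling. All eliminated genes had a median of 0.96, and 669 of the 926 were higher in the male. At the 4-fold rule with 10 RPKM, 1 member was higher in the male (6.62% of all genes) and 0 were lower (4.34%). With the wider rule the counts were 2 and 2 of 67, against 13.4% and 9.05% of all genes. No member was higher in all 5 male than in all 5 female regions by a gap of 2-fold (0.549% of all genes), nor the reverse (2.51%).

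Only 2 eliminated members reached 10 RPKM. AgB16X_g003, a transcript of 840 nt and 8 exons on the plus strand of AgB16X from 28441 to 36294, had 1.5, 1.2, 26.7, 2.9 and 10.3 RPKM along the male germline and 1.8, 1.0, 1.3, 4.7 and 4.2 along the female one. Its post-meiotic value was the highest, its spermatid value the next, and diplotene and oocyte stood above the other female regions, so it was unlike the mitotic members. From spermatogenesis to the post-meiotic region it was 3.65 higher on the log2 scale. Among 839 eliminated genes that reached 1 RPKM, 5 (0.60%) had their highest value in the post-meiotic region.

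AgE05_g018, the other one, had 8.9, 1.5, 0.2, 0 and 0.1 RPKM along the male germline and 12.7, 5.6, 4.9, 0.7 and 1.2 along the female one. Its marked transcript, 4412 nt in 1 exon on the minus strand of AgE05 from 354871 to 359282, is annotated as a hypothetical protein. The transcript with the C2H2 name had 2.0, 0.1, 0.2, 0 and 0.2 RPKM along the male germline and 5.7, 1.4, 1.8, 0 and 0 in the female regions. Both had their highest value in the female mitotic region, but the one with the C2H2 name did not reach 10 RPKM. AgE40_g002, the eliminated member highest in spermatogenesis, is a similar case. Its marked transcript, a hypothetical protein, had 3.0 RPKM in the male mitotic region, 6.2 in spermatogenesis and at most 0.4 in the female regions, and its C2H2 transcript had 2.8, 3.7, 0.3, 0 and 0.1 in the male and 2.4, 2.5, 2.3, 0.6 and 2.2 in the female regions. In all, 6 members had a marked transcript with another annotation.

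The retained members with the highest levels had levels above 10 RPKM in several regions of both germlines. AgB05_g110 (marked transcript of 1058 nt on the plus strand of AgB05, 1945346 to 1950834) had 45.9, 15, 5.1, 3.7 and 7.7 RPKM along the male germline and 31.8, 25.1, 31.7, 13.6 and 5.5 along the female one. AgR029_g079 (849 nt, minus strand of AgR029, 1309302 to 1310951) had 42.0, 33.4, 4.2, 0.7 and 3.2 RPKM along the male germline and 29.7, 40.5, 36.5, 3.5 and 2.6 in the female regions. AgR029_g079 was thus high up to spermatogenesis and late pachytene and low after each. From spermatogenesis to the post-meiotic region its log2 difference was -2.73, and from late pachytene to diplotene it was -3.06. Among the 11 members at 10 RPKM or more, AgB05_g110 had 1 of the 3 largest ratios of lowest to highest value, with 1 added to both (0.1002), and AgR029_g079 1 of the 3 smallest (0.0395).

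Another 3 retained members had their highest values in the female germline. AgR007_g190 (2047 nt, minus strand of AgR007, 3793573 to 3809414) had 11.7, 11.2, 4.9, 2.0 and 6.6 RPKM along the male germline and 21.2, 25.7, 24.8, 12.3 and 14.9 in the female regions. Its female values were all above its male ones, by a small gap, and its ratio of lowest to highest value (0.112) was the largest of the 11. AgB08X_g015 (6419 nt, minus strand of AgB08X, 171122 to 182365) had 8.0, 0.7, 2.3, 1.9 and 2.4 RPKM along the male germline and 17.6, 26.7, 23.9, 6.2 and 11.0 in the female regions. AgR013X_g146 (7933 nt and 24 exons, plus strand of AgR013X, 2443342 to 2474588) had 11.8, 0.7, 6.2, 2.8 and 3.5 RPKM along the male germline and 23.5, 10.8, 11.2, 1.9 and 1.6 in the female regions. The last 2 genes are the retained members on X scaffolds, and both were at 0.7 RPKM in spermatogenesis.

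Of the others, AgR003_g036 (6646 nt, minus strand of AgR003, 512928 to 532595) had 16.5, 17.8, 3.5, 0.4 and 1.7 RPKM along the male germline and 7.9, 9.4, 9.2, 1.4 and 1.4 in the female regions. AgB01_g713 (5139 nt, 26 exons, plus strand of AgB01, 11425862 to 11452328) had 13.7, 7.9, 3.1, 0.4 and 3.4 RPKM along the male germline and 9.5, 6.2, 6.5, 2.6 and 1.3 in the female regions, a ratio of lowest to highest of 0.0952. Both were higher in the early than in the late regions of each sex. AgR022_g024, whose marked transcript is a hypothetical protein, had 5.8, 1.9, 3.0, 0.1 and 0.7 RPKM along the male germline and 7.1, 5.5, 5.7, 6.1 and 3.5 in the female regions.

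AgB11_g055 was at 1 RPKM or more in a single library. This retained gene (1002 nt, minus strand of AgB11, 928505 to 931231) had 10 RPKM in the post-meiotic region and at most 0.5 in each of the other 9. It was 3.20 higher on the log2 scale than in spermatogenesis, and the differences of the seminal vesicle and of spermatids from the post-meiotic region were -2.87 and -3.32. AgR004_g292, named after its values were seen, was alike at a lower level, with 4.4 RPKM in the post-meiotic region and at most 0.3 in the other regions. Together with AgB16X_g003 these made 3 members that were highest in the post-meiotic region.

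Across the post-meiotic step, 2 members were called higher (AgB16X_g003 and AgB11_g055), against 5.66% of all genes, and 2 lower (AgR029_g079 and AgR003_g036, the latter with a log2 difference of -2.06), against 7.79%. In the seminal vesicle 0 were higher than in the post-meiotic region (1.7% of all genes) and 3 were lower (5.27%), namely AgB05_g045 (-3.34), AgB11_g055 and AgB16X_g003 (-2.83). In spermatids 0 were higher (1.56%) and 1 was lower (4.27%), AgB11_g055. With the wider rule 4 members were higher (15.6%) and 13 lower (15.0%) in the post-meiotic region than in spermatogenesis, 0 higher (3.75%) and 8 lower (20.5%) in the seminal vesicle, and 1 higher (5.28%) and 2 lower (11.3%) in spermatids. After rescaling the count lower in the post-meiotic region was 29 (43.3%), against 25.3% of all genes. These were 9 eliminated members (31.0%), against 74.0% of all eliminated genes, and 20 retained members (52.6%), against 22.7% of all retained genes. As deposited, the 13 were 5 eliminated (17.2%, against 54.1%) and 8 retained members (21.1%, against 12.9%). Only 6 of the 29 eliminated members were at 1 RPKM or more in spermatogenesis, which limits how many could be called lower. Among genes at 1 to under 5 RPKM there, 4 of 5 eliminated members (80.0%) were lower, against 45.45% of eliminated genes. Of the retained members in that band 5 of 8 (62.5%) were lower, against 15.13% of retained genes. The 8 lower in the seminal vesicle were 1 eliminated (3.45%, against 51.6%) and 7 retained members (18.4%, against 18.8%). In the post-meiotic region 1 of the 29 eliminated members was at 1 RPKM or more, against 57.67% of all eliminated genes. No more than 1 could therefore be called lower, and the 2 shares of eliminated genes cannot be compared. The seminal vesicle listed 23 of the 29 eliminated members at 0.

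AgB05_g045 had the highest value of the family, 89.5 RPKM in spermatogenesis, but most of that level lay in a part of the gene with another name. Its marked transcript (5110 nt and 23 exons, plus strand of AgB05, 669564 to 695729) had 70.8, 89.5, 25.3, 1.6 and 7.8 RPKM along the male germline and 15.2, 12.2, 12.4, 2.2 and 1.5 in the female regions. Of its 13 transcripts, 11 carry the C2H2 name and 2 are named for PP1, a serine/threonine-protein phosphatase, a class of enzyme that removes phosphate from proteins. The phosphatase transcripts begin at 686951. The 7 C2H2 transcripts that end before it, by 684479, had median levels of 11.2, 1.1, 2.5, 1.2 and 3.5 RPKM along the male germline and 17.1, 14.0, 14.1, 2.4 and 1.7 in the female regions.

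The phosphatase transcripts were nearly limited to the male. The longer of them had 90.5, 139.5, 37.6, 0.8 and 7.1 RPKM in the male regions and at most 0.3 in each female region. The 3 C2H2 transcripts that run through to 695729, the marked one among them, had medians of 67.8 RPKM in the male mitotic region, 85.2 in spermatogenesis and 14.9 in the female mitotic region, and so followed the phosphatase part in the male and the C2H2 part in the female. The marked transcript was the 1 member called higher in the male than in the female mitotic region (2.15 on the log2 scale). In the 7 short C2H2 transcripts that direction turned, with a median of 17.1 RPKM in the female mitotic library against 11.2 in the male one. Transcripts that share exons list nearly the same values, so reads of 1 exon may count toward several of them.

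**Figure D5:**
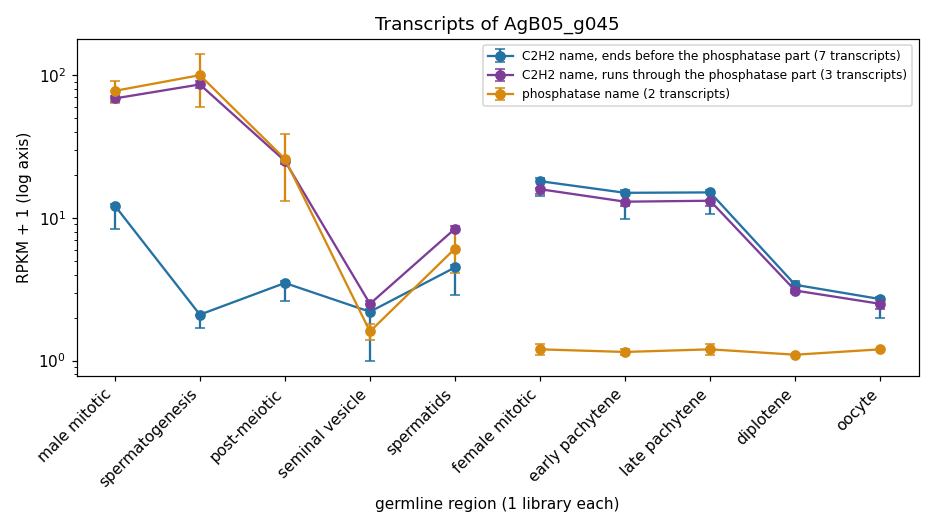
Median RPKM + 1 (vertical, log axis) of 3 groups of AgB05_g045 transcripts in each region (horizontal axis, 1 library each); bars run from the lowest to the highest transcript of a group. In spermatogenesis the short C2H2 transcripts stand at 1.1 RPKM and those that run through the phosphatase part at 85.2, while in the female regions these 2 groups lie together and the phosphatase transcripts are near 0.

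Late in the female germline the family was low. Between early and late pachytene 0 members were higher (0.0% of all genes) and 0 lower (0.0499%), and so by the wider rule (0.0333% and 0.216%). From late pachytene to diplotene 28 of 29 eliminated members were lower, against 67.9% of all eliminated genes. Of the retained members 31 of 38 were lower, against 54.6% of all retained genes. The median log2 difference was -0.38 both in eliminated members and in all eliminated genes. It was -0.44 in retained members, against -0.14 in all retained genes and -0.14 over all genes. After rescaling both medians of members were -0.26, against -0.18 in all eliminated and 0 in all retained genes. Called lower were 3 members, AgR029_g079, AgR013X_g146 (-2.07) and AgB05_g045 (-2.07), against 5.01% of all genes, and 0 were higher (2.25%). With the wider rule 10 members were lower (14.9%), against 10.7%, and 0 were higher (6.65%). That count depended on the scaling and on the transcript chosen. After rescaling 1 was lower (3.87% of all genes), and 19 were lower with the highest-mean transcript (11.3%), 20 with the annotated transcript (10.8%) and 26 with values summed per gene (11.7%). Between diplotene and oocyte there were 0 calls higher (1.11%) and 0 lower (0.843%), and 1 higher (3.67%) and 0 lower (3.01%) by the wider rule.

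In diplotene 20 of 29 eliminated and 19 of 38 retained members were listed at 0. From the steps between its low values, 1 read per kilobase was worth about 0.111 RPKM in that library, and depth could not be read from the other libraries in this way. Of the 39 members at 0, 17 had a late pachytene value above the limit that a count of 0 allows for their length, taken as 3 reads, 10 of them eliminated. For the other 22 a lower level in diplotene was not detectable at this depth. Limits of this kind cover counting error only.

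Other zinc finger genes, taken by words in the annotation, had higher levels and fewer eliminated genes than the C2H2 family. The first list held 95 genes named for a C2H2 factor family, such as Krüppel-like or PR domain factors, or as a zinc finger protein with no class. Of these 5 (5.26%) were eliminated, 52 (54.7%) reached 10 RPKM, and 10 of the 83 that reached 1 RPKM (12.05%) had both mitotic regions above the others, against 30 of 54 (55.6%) in the C2H2 family and 14.5% of all genes. The second list held 84 zinc fingers of other classes, such as the CCCH type that binds RNA. Of these 3 (3.57%) were eliminated, 45 (53.6%) reached 10 RPKM and 18 of 81 (22.2%) had the mitotic pattern. At the first female step, into early pachytene, the median log2 differences of the lists were -0.07 and -0.21.

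The 4-fold rule with 10 RPKM was also applied to the lists, with the share of all genes in brackets. Spermatogenesis against the male mitotic region had 1 of the 95 genes of the first list higher (2.11%) and 12 lower (9.79%). Diplotene against late pachytene had 1 higher (2.25%) and 8 lower (5.01%). The male against the female mitotic region had 3 higher (6.62%) and 11 lower (4.34%). Among the 84 genes of the second list these counts were 0 and 9, 0 and 7, and 5 and 3. The 5 eliminated genes of the first list were singled out after their values were seen. AgB06_g002 and AgB06_g003, each named only as a zinc finger protein, had 5.9 and 22.4 RPKM in the male mitotic region, 28.7 and 21.3 in spermatogenesis, and 0 in the 5 female regions. AgE13_g008, named for KRAB and SCAN domains, had 126.8 RPKM in spermatogenesis and 3.0 in the female mitotic region. Of the other two, AgE13_g007 was also highest in spermatogenesis (59.0 RPKM), whereas AgB09X_g153 had 24.3 RPKM in the male mitotic region and 1.7 in spermatogenesis. So 3 of the 5 were highest in spermatogenesis and 2 in the male mitotic region.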

How the data were processed

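Frozen, ground germline pieces gave total RNA that was depleted of ribosomal RNA before sequencing, per the labels' protocols. TopHat2 and Cufflinks are named, without versions, in the submitters' processing notes. Not given in the sources used here are the genome build, the annotation, the use of strand and the handling of reads that map to several genes. RPKM values, with 1 decimal, were computed by the authors and deposited in 1 table. Its header names no unit, and RPKM was inferred because the values are not whole and their column totals differ. Coordinates, annotation, eliminated status, 5' end flags and the best expressed transcript are as deposited.

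The 2 mixed-sample libraries are not analysed here. One gene that meets the words of the rule is not reported here. Members, lists and rules were chosen with earlier results of these data known.

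Differences were taken on log2(RPKM + 1), which understates the change of low genes. A gene was called at 4-fold with a higher value of 10 RPKM or more. A wider rule, 4-fold of RPKM + 0.1 with 1 RPKM or more, was added after the values were seen. Named genes were all eliminated members at 10 RPKM or more, the 10 highest retained members, up to 3 called differences each way per comparison, and the 3 smallest and 3 largest ratios of lowest to highest value. Exceptions are said to be chosen after their values were seen. Rescaling divided each library by its median ratio over 15277 transcripts at 1 RPKM or more in all libraries. The log2 factors ran from -1.20 in spermatogenesis to 1.04 in the female mitotic region. Other alternatives changed the pseudocount, the filter, the transcript and the libraries used. Reads per library were sought from steps in the values of transcripts under 250 nt. The calling rule was tested on simulated data. Work was done with Python 3.11.15, pandas 2.3.3, numpy 2.4.6 and matplotlib 3.10.9.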

Additional observations from a re-analysis of the deposited data

Results flagged for a closer look

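AgB08X_g015, a retained C2H2 gene on an X scaffold, left the mitotic region in opposite directions in the 2 sexes. The log2 difference of spermatogenesis from the male mitotic region was -2.40 (0.7 against 8.0 RPKM), and that of early pachytene from the female mitotic region was 0.57 (26.7 against 17.6 RPKM). It was singled out because the 2 steps had opposite signs and each exceeded 0.5, a bound chosen after the values were seen. The course was not particular to this gene. In the other zinc finger lists the same 2 signs were met both on and off X scaffolds. Examples are AgR019X_g108 and AgR040X_g045 on X scaffolds, and AgR024_g152 and AgB10_g101 on scaffolds without an X in the name. All were named after their values were seen. No share over all genes on X scaffolds is given. The difference between the sexes was not tested, since each region was 1 library.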

How the results depend on the processing

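No paired analysis was possible because each region was 1 library and the labels give no replicate numbers, and for the same reason no group could lose a library and keep a value. The mitotic pattern was instead counted without the seminal vesicle (20 eliminated and 20 retained), without the male mitotic region (24 and 24) and without the female one (23 and 22). Of all genes 12.82%, 24.99% and 22.8% had the pattern in these settings, against 12.52% as deposited. Leaving out a region can only keep or raise such a count, so these counts could not show a weaker pattern. Other counts are of the 67 C2H2 members at 4-fold, with the share of all genes under the same setting in brackets. After median-ratio rescaling, spermatogenesis had 3 higher (13.0%) and 0 lower (0.355%) than the male mitotic region, the post-meiotic region 8 lower (15.0%) and diplotene 1 lower (1.56%). With the wider rule on that scale, 9 were higher (21.0%) and 1 lower (2.06%) in spermatogenesis, 29 lower (25.3%) in the post-meiotic region, 3 lower (0.227%) in early pachytene, and 2 higher (9.2%) and 1 lower (3.87%) in diplotene. Rescaled, 8 members were highest in spermatogenesis (18.4%, from 2 and 9.6% as deposited), the mitotic pattern held for 11 eliminated and 6 retained members, and the medians in spermatogenesis were 0.689 RPKM for eliminated and 1.49 for retained members. With values summed per gene these medians were 0.50 and 1.20 RPKM, and 4 members were highest in spermatogenesis (11.9%). In that setting 4 were lower in spermatogenesis than before it (16.5%), 4 higher (9.6%) and 5 lower (10.3%) in the post-meiotic region, 1 higher (2.31%) and 6 lower (11.7%) in the seminal vesicle, and 2 lower in spermatids (6.62%). Also summed, 2 were lower in early pachytene (0.239%), 5 lower in diplotene (7.11%) or 26 with the wider rule (11.7%), and 0 higher (8.62%) and 1 lower (6.21%) in the male than in the female mitotic region. With the highest-mean transcript the post-meiotic region had 1 lower (8.27%), the seminal vesicle 1 higher (1.78%), spermatids 2 lower (4.76%), spermatogenesis 2 lower (11.0%) and diplotene 19 lower with the wider rule (11.3%). With the annotated transcript the seminal vesicle had 1 higher (1.7%), the post-meiotic region 1 lower (7.78%), spermatogenesis 2 lower (9.8%) and diplotene 20 lower with the wider rule (10.8%). Without the filter on low values 4 were higher (8.16%) and 4 lower (9.17%) in the post-meiotic region, 2 lower in spermatids (5.43%), 2 lower in spermatogenesis (13.4%) and 7 highest in spermatogenesis (17.7%). Under the wider rule as deposited, whose shares of all genes the results give, lower members were 15 in spermatogenesis, 13 in the post-meiotic region, 8 in the seminal vesicle, 2 in spermatids, 21 in early pachytene and 10 in diplotene. Higher ones were 1 in the oocyte, 1 in spermatids and 4 post-meiotically, and the male against female mitotic counts were 2 and 2. The cause of these shifts was not tested. The other 126 of 177 recomputed values stayed within 1.5 times of their first value, among them all 20 with a pseudocount of 0.1. Many of these were counts of 0 that stayed at 0, so the tally says little about how stable the results are. Counts at 10 RPKM rest on 11 genes, and depth is known for 1 library only.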
